A study of Homo sapiens with 6 samples.

Results

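The SR proteins, the hnRNP proteins and the kinases that phosphorylate SR proteins were followed at the RNA level in K562 cells, a human erythroleukemia line derived from chronic myeloid leukemia. Their genes were taken by symbol among protein-coding genes: SRSF, TRA2A and TRA2B, SRRM, HNRNP, SRPK1 to SRPK3 and CLK1 to CLK4. This gave 51 of the 46427 genes in the deposited tables. Cultures labelled wild type were exposed for 24 h to 0.1% DMSO, the vehicle, or to HR-19011 at 10 µM. The series title calls HR-19011 a squaramide derivative. Each group had 3 libraries of polyadenylated RNA. Separate cultures are not stated for the 3 libraries of a group, so the p-values reflect the spread between these samples alone, which may be technical. The DMSO content of the HR-19011 cultures is not stated in the labels either.

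SR proteins carry RNA recognition motifs and a tail rich in arginine and serine, bind exonic enhancers and recruit the spliceosome to weak splice sites. SRPK kinases phosphorylate that tail in the cytoplasm, which permits nuclear import, and CLK kinases phosphorylate it further in the nucleus and release SR proteins from speckles. The hnRNP proteins coat nascent transcripts, often oppose SR proteins at silencer elements, and also act in RNA export, stability and translation. Many genes of both families hold a conserved poison exon or a retained intron through which the protein lowers its own mRNA by nonsense-mediated decay. Rapidly dividing and transformed cells, of which K562 is an example, are known for high SR and hnRNP levels.

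The values are FPKM, read fragments scaled to transcript length and to the mapped fragments of the library, so levels can be set side by side between genes. The tables give no read numbers, and sequencing depth is therefore unknown. All FPKM of a library summed to 461938 ± 5487 in the vehicle group and 423885 ± 3632 in the treated group (SD, n = 3). All 10 erythroid markers examined, among them GATA1 and the fetal globins, were at 1 FPKM or more in every library, and 9 of 11 markers of other cell types were under 1 FPKM in all of them. The erythroid markers summed to between 9913 and 10098 FPKM in vehicle and between 4285 and 4509 in HR-19011. EPCAM, an epithelial adhesion gene, was the highest of the 11 and went from 32.5 ± 0.767 to 20.3 ± 1.37 FPKM (SD, n = 3). Of the 11, 2 averaged 1 FPKM or more across the libraries, of which 1 was called lower in HR-19011 and 1 higher. The summed level of the 11 markers ranged from 34.3 to 35.7 FPKM in vehicle and from 22.7 to 25 in HR-19011, and the part of either list in the results was not tested.

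Of the 51 genes, 42 averaged 1 FPKM or more across the 6 libraries and were tested with limma on log2(FPKM + 1), within a fit of 11856 genes. A gene is called where its Benjamini-Hochberg adjusted p is under 0.05, and every log2 fold change is on that scale, which understates changes of low genes. Of the 42, 31 were lower in HR-19011, 6 were higher and 5 were not called. Among all 11856 genes tested, 38.0% were called lower and 46.4% higher, 84.4% in all, and 85.2% had no overlap between the 3 treated and 3 vehicle libraries, as did 36 of the 42. The median log2 fold change of the 42 was -0.47, against 0.07 for all tested genes. Lower by at least 2-fold on this scale were 4 of the 42, SRSF2, HNRNPAB, SRSF7 and SRPK1, against 6.45% of all tested genes, and none was higher by 2-fold or more, against 12.0%. In bulk samples, fewer cells of a kind and less RNA per cell cannot be told apart.

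The balance depended on how libraries were scaled. The median of all tested genes moved by -0.26 under trimmed-mean (TMM) scaling, by -0.12 under quantile normalization and by 0.12 after conversion to TPM. The TMM factors were computed over all genes with a nonzero value in the library, including those too low to be tested. With them the median of the tested genes was -0.19, in place of 0.07. The higher share of called genes among the 42 was 16.2% as deposited, 2.56% under TMM scaling, 20.6% under quantile normalization and 27.0% after conversion to TPM. For all genes it was 55%, 37.9%, 46.3% and 62.2%. Counts of lower genes among the 42 were 31, 38, 27 and 27 in the same order.

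**Figure D1:**
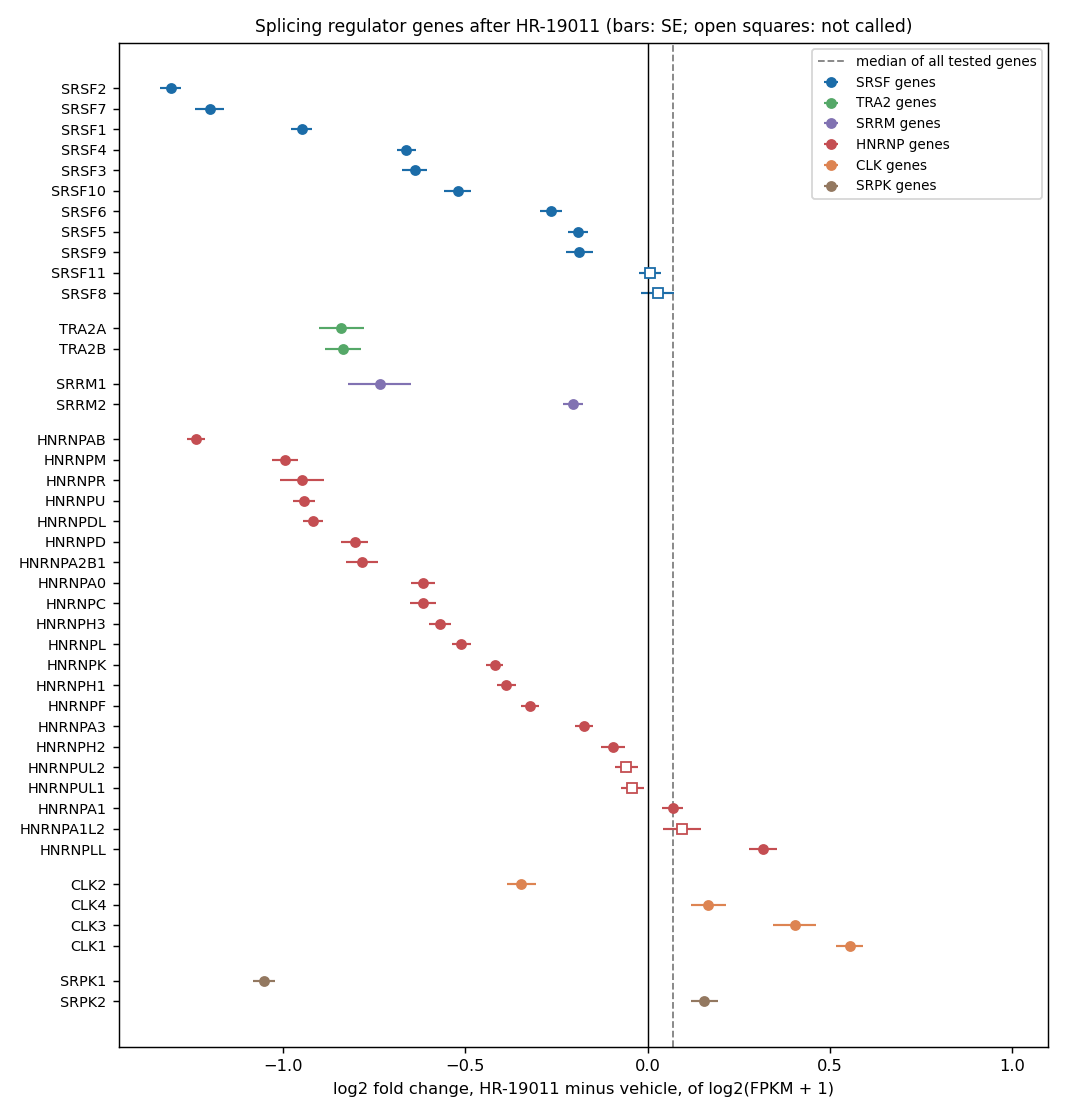
Log2 fold change (HR-19011 minus vehicle, x axis, of log2(FPKM + 1)) of the 42 tested genes by family, with SE bars, filled circles for called genes and open squares for genes not called. SRSF2 at -1.31 and HNRNPAB at -1.24 lie farthest left and CLK1 at 0.55 farthest right, and the dashed line is the median of all tested genes, 0.07. Points right of 0 for HNRNPA1, HNRNPA1L2, SRSF8, SRSF11, SRPK2 and CLK4 turn negative under TMM scaling, and those for CLK4 and SRSF8 also under quantile normalization. Points left of 0 for HNRNPUL1 and HNRNPUL2 turn positive under quantile normalization and conversion to TPM, and that for HNRNPH2 under conversion to TPM.

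Upstream sequence was examined for the 39 tested genes with an entry in the RefSeq promoter table of GRCh38.p14, over the 250 bases before the listed start. The motifs, searched on both strands, were the E-box CACGTG, the ATF4-C/EBP element TGATGNAA and the CRE TGACGTCA, and none is contained in another. The E-box was present in 8 of the 39 (20.5%), those of CLK2, CLK4, HNRNPA3, HNRNPD, HNRNPDL, HNRNPH2, HNRNPH3 and HNRNPM, against 9.27% of 8992 promoters of tested genes and 6.49% of all 27305. No match to the other motifs was found in these 39 windows. The ATF4-C/EBP element was in 1.33% and the CRE in 3.27% of promoters of tested genes, and in 3.19% and 1.77% of all promoters. A match is a description of letters and not a bound site. Shown are 2 genes that fell and carry the E-box, in capitals, and CLK1, the gene with the highest log2 fold change, which has no match. As deposited the 8 carriers did not share a direction, since CLK4 was called higher (0.17). It was at -0.057 under TMM scaling, and at -0.17 and called lower under quantile normalization. No SRSF, TRA2 or SRRM gene is among the 8, nor are HNRNPAB and SRPK1, which fell strongly. Whether the motif goes with direction was not tested. HNRNPM is at chr19:8444725-8444974 on the plus strand, HNRNPD at chr4:82373992-82374241 on the minus strand and CLK1 at chr2:200864659-200864908 on the minus strand.
HNRNPM: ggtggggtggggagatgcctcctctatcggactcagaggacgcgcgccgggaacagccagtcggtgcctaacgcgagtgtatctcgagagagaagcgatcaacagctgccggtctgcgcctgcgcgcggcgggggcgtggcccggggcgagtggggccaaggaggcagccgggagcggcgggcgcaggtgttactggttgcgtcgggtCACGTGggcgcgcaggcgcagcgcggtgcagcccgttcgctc
HNRNPD: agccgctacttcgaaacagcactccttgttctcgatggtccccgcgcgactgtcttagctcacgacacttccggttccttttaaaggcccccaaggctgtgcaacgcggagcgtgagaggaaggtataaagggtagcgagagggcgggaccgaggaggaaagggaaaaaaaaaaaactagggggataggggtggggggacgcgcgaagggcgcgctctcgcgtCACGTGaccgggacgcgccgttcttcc
CLK1: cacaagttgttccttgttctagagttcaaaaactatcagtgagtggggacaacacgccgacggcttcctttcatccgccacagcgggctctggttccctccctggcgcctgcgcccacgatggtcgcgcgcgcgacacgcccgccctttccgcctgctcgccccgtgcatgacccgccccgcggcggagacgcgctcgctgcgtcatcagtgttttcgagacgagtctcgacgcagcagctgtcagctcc
The E-box begins 42 bases before the start in HNRNPM and 27 bases before it in HNRNPD, and these windows are 71.6% and 60.0% G or C, against 64.4% for CLK1 and a median of 65.2% for the 39 as for all tested genes. The pair CG, which the E-box contains, had a median count of 25 in the 39 windows and 21 in those of all tested genes. Its part in the E-box share was not tested.

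SRSF genes fell in 9 of 11 tested cases, with falls ranging from 1.14-fold to 2.49-fold. SRSF2, also called SC35, an activator of exon inclusion that marks nuclear speckles, was the highest SRSF gene in vehicle and fell most. Its values were 259, 271 and 265 FPKM in the vehicle libraries and 108, 107 and 104 in the HR-19011 libraries (log2 fold change -1.31, SE 0.0281, limma adjusted p = 6.65e-10). Every treated library lay far under every vehicle library. SRSF2 (NCBI gene 6427) lies on chromosome 17 of GRCh38 from 76734115 to 76737411 on the minus strand, where MFSD11 overlaps it on the other strand. The kit was stranded, but the sources used here do not say whether counting used strand, so values of overlapping genes are uncertain. A protein-coding gene on the other strand overlaps 12 of the 42 tested genes in GENCODE annotation: SRSF2, SRSF9, SRRM2, HNRNPA2B1, HNRNPAB, HNRNPH3, HNRNPU, HNRNPUL1, SRPK1, SRPK2, CLK2 and CLK3.

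SRSF7, a shuttling SR protein with a zinc knuckle that takes part in mRNA export, went from 119, 114 and 120.0 FPKM to 53.0, 51.1 and 47.9 FPKM (log2 fold change -1.20, SE 0.0400, limma adjusted p = 8.05e-09). SRSF1, the founding SR protein and a known oncoprotein when in excess, had 95.2, 91.2 and 95.7 FPKM in vehicle and 48.0, 48.8 and 47.9 in HR-19011 (log2 fold change -0.95, SE 0.0285, limma adjusted p = 4.39e-09). For both genes the groups were separate and the replicate spread was small beside the difference. SRSF3, the smallest SR protein and an export adaptor like SRSF7, fell 1.57-fold, from 99.9 ± 4.01 to 63.7 ± 1.12 FPKM (SD, n = 3). SRSF4, which has one of the longest arginine and serine tails, fell 1.60-fold, and SRSF10, a splicing repressor when dephosphorylated, fell 1.45-fold.

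The remaining SRSF genes moved little as deposited. SRSF6 went from 48.2, 46.5 and 48.4 to 40.4, 39.5 and 38.7 FPKM (log2 fold change -0.27, SE 0.0308, limma adjusted p = 3.58e-05). SRSF5 went from 92.9, 90.0 and 89.5 to 79.0, 78.1 and 81.2 FPKM (log2 fold change -0.19, SE 0.0280, limma adjusted p = 0.000172). SRSF9, a close relative of SRSF1, went from 121, 118 and 123.4 to 111, 106 and 101 FPKM (log2 fold change -0.19, SE 0.0372, limma adjusted p = 0.00125). In each of the 3 the treated libraries lay below the vehicle libraries. The calls for SRSF5 and SRSF9 were lost after quantile normalization (limma adjusted p = 0.249 and 0.518) and after conversion to TPM (0.0603 and 0.105). Under TMM scaling the falls of SRSF6, SRSF5 and SRSF9 were larger, at -0.56, -0.49 and -0.49, and all were called.

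SRSF11 and SRSF8 were not called. SRSF11, an SR-related protein of early spliceosomes, had 46.9, 48.0 and 49.1 FPKM in vehicle and 48.3, 49.0 and 47.4 in HR-19011, with overlapping groups. SRSF8, a relative of SRSF2 that arose by retrotransposition, had 13.2, 13.3 and 13.8 FPKM and 12.9, 14.4 and 13.9 FPKM, also overlapping. Their log2 fold changes of 0.006 and 0.028 became -0.29 and -0.25 under TMM scaling, where both were called lower. SRSF12 was listed at 0 in all 6 libraries.

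TRA2A and TRA2B, the transformer-2 homologs that bind purine-rich enhancers, fell together. TRA2B had 80.6, 85.2 and 90.6 FPKM in vehicle and 48.0, 49.3 and 45.01 in HR-19011 (log2 fold change -0.84, SE 0.0484, limma adjusted p = 2.84e-07). TRA2A had 33.6, 32.7 and 37.7 and 19.8, 19.5 and 17.5 FPKM (log2 fold change -0.84, SE 0.0624, limma adjusted p = 1.54e-06). The ratio of TRA2A to TRA2B was 0.406 ± 0.0186 in vehicle and 0.399 ± 0.0126 in HR-19011, with overlapping groups. Of the SRRM genes, SRRM1 (SRm160), a coactivator that links SR proteins to the spliceosome, went from 62.7, 50.8 and 62.8 to 31.7, 37.4 and 35.3 FPKM (log2 fold change -0.73, SE 0.0869, limma adjusted p = 4.04e-05). Vehicle replicate 2 was the lowest of its group for SRRM1, yet above every treated library. SRRM2 (SRm300), a scaffold of nuclear speckles, went from 105, 107 and 111 to 92.3, 94.2 and 92.9 FPKM (log2 fold change -0.21, SE 0.0277, limma adjusted p = 0.000102), a call lost under quantile normalization (limma adjusted p = 0.174).

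Across the SRSF, TRA2 and SRRM genes, 13 of the 15 tested genes were lower and 0 higher, with 13 and 0 at an unadjusted p under 0.05 in limma, and a median log2 fold change of -0.64. Under TMM scaling 15 were lower and 0 higher, under quantile normalization 10 and 1 (SRSF11), and after conversion to TPM 11 and 2 (SRSF8 and SRSF11). Of the 4 untested genes, SRRM3 (a neuronal microexon regulator like SRRM4) and SRRM4 were at or below 0.100028 FPKM in every library. SRRM5 had 0.0768, 0.0533 and 0.111 FPKM in vehicle and 0.301, 0.337 and 0.401 in HR-19011. The summed FPKM of the 19 SRSF, TRA2 and SRRM genes was 1291 ± 23.7 in vehicle and 820.1 ± 13.5 in HR-19011 (SD, n = 3), a share of all FPKM of 0.279% and 0.193%.

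**Figure D2:**
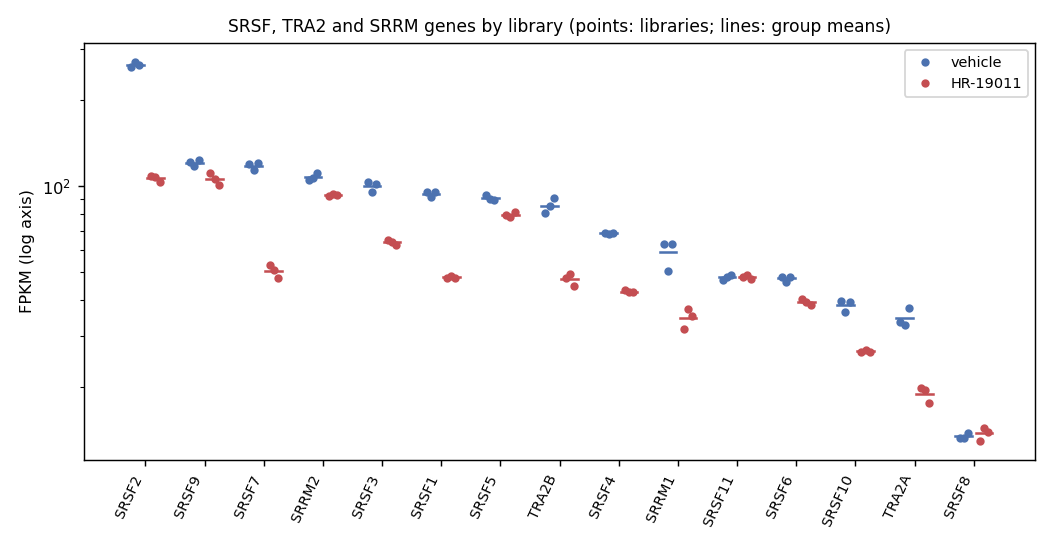
FPKM (log axis) of the 15 tested SRSF, TRA2 and SRRM genes, ordered by vehicle level, with 1 point per library and a line at each group mean. SRSF2 stands above the other genes in vehicle at 265 FPKM and comes down to 106, while SRSF11 and SRSF8 overlap between groups.

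Because the falls were unequal, the make-up of the SRSF pool differed between groups. Shares of the summed SRSF FPKM do not depend on a scaling factor per library. SRSF2 went from 26.4% ± 0.834 to 17.02% ± 0.106 of the pool (SD, n = 3) and SRSF7 from 11.7% ± 0.193 to 8.10% ± 0.265. SRSF9 went from 12.0% ± 0.153 to 16.9% ± 0.499 and SRSF5 from 9.04% ± 0.197 to 12.7% ± 0.457. In treated libraries the shares of SRSF9 and SRSF2 overlapped, at 16.5% to 17.5% against 16.9% to 17.1%. Between close relatives, the ratio of SRSF9 to SRSF1 was 1.28 ± 0.0110 in vehicle and 2.20 ± 0.105 in HR-19011. The ratio of SRSF7 to SRSF3, both export adaptors, went the other way, 1.18 ± 0.0205 in vehicle and 0.795 ± 0.0263 in HR-19011. Within the SRSF4, SRSF5 and SRSF6 group the ratio of SRSF5 to SRSF4 was 1.33 ± 0.0237 in vehicle and 1.85 ± 0.0444 in HR-19011. These ratios were described without a test, since with 3 libraries in each group the smallest p of an exact permutation test is 0.1.

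HNRNP genes fell in 16 of 21 tested cases and rose in 2. Their median log2 fold change was -0.51. Under TMM scaling 20 were lower and 0 higher, under quantile normalization 14 and 3, and after conversion to TPM 14 and 4. The higher count was 1 without vehicle replicate 1 or 2 or without HR-19011 replicate 1. HNRNPAB, a factor related to HNRNPD that binds AU-rich RNA and has been tied to cytidine deaminase editing complexes, fell most. It had 221, 224 and 224 FPKM in vehicle and 95.5, 92.7 and 93.8 in HR-19011 (log2 fold change -1.24, SE 0.0236, limma adjusted p = 3.68e-10). The gene (NCBI gene 3182) lies on chromosome 5 of GRCh38 from 178204533 to 178211163 on the plus strand. The 3 libraries of each group lay within a few FPKM of each other.

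HNRNPM, a GU-rich RNA binder that regulates exon skipping and whose upstream E-box was shown with the sequences, had 202, 206 and 208 FPKM and 103, 107 and 97.6 FPKM (log2 fold change -0.995, SE 0.0355, limma adjusted p = 1.25e-08). HNRNPR, a relative of SYNCRIP with roles in mRNA transport, had 127, 111 and 127 and 62.4, 66.7 and 58.7 FPKM (log2 fold change -0.95, SE 0.0606, limma adjusted p = 5.59e-07). Groups were well apart for both, with a wider spread for HNRNPR. HNRNPU, a scaffold attachment factor that binds chromatin and RNA, fell 1.93-fold, from 168 ± 3.73 to 86.9 ± 2.64 FPKM (SD, n = 3). The paralogs HNRNPD (AUF1), which promotes decay of AU-rich mRNAs, and HNRNPDL fell 1.75-fold and 1.91-fold.

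The other HNRNP genes called lower fell by less. HNRNPA2B1, a proposed reader of RNA methylation marks and an exon silencer, fell 1.73-fold, from 409 ± 25.3 to 237 ± 7.09 FPKM (SD, n = 3). HNRNPC, which measures transcript length and masks uridine tracts, fell 1.54-fold, and HNRNPK, a poly-C binder, 1.34-fold. HNRNPL, a CA-repeat binder, fell 1.43-fold, and the single-exon gene HNRNPA0, which stabilizes stress-related mRNAs, 1.56-fold. Among the G-tract binders, HNRNPH3 fell 1.49-fold, HNRNPH1 1.31-fold and HNRNPF 1.251-fold. HNRNPA3, a relative of HNRNPA1, fell 1.13-fold, a call lost after quantile normalization (limma adjusted p = 0.598) and conversion to TPM (0.0764).

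HNRNPA1, the best known antagonist of SRSF1 in splice site choice, was the highest gene of all 51 and did not follow the others. It had 492, 484 and 508 FPKM in vehicle and 526, 528 and 503 in HR-19011 (log2 fold change 0.069, SE 0.0287, limma adjusted p = 0.0498). The groups overlapped, and this call as higher was lost without vehicle replicate 1 or 2 or without HR-19011 replicate 1 or 2, with limma adjusted p between 0.11 and 0.148. It turned to a call as lower, at -0.23, under TMM scaling. HNRNPA1 was called higher under quantile normalization (0.091, limma adjusted p = 0.00146) and after conversion to TPM (0.19, limma adjusted p = 5.84e-05). HNRNPA1 also has many near-identical processed copies, and the sources used here do not say how shared reads were divided. HNRNPA1L2, such a copy that is annotated as protein coding, had 13.1, 13.1 and 11.9 FPKM and 13.8, 12.8 and 14.2 FPKM and was not called (log2 fold change 0.095). It was called lower under TMM scaling (-0.19), but higher after conversion to TPM (0.22) and without HR-19011 replicate 2 (0.14).

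HNRNPLL, a paralog of HNRNPL known for switching CD45 splicing in lymphocytes, was the other HNRNP gene called higher. It had 14.7, 14.2 and 14.4 FPKM in vehicle and 17.8, 17.8 and 19.0 in HR-19011 (log2 fold change 0.32, SE 0.0378, limma adjusted p = 4.29e-05). Groups did not overlap, but under TMM scaling the difference shrank to 0.032 and was not called. HNRNPH2, the X-linked paralog of HNRNPH1, had 26.6, 25.6 and 26.0 FPKM and 25.1, 24.1 and 23.8 FPKM (log2 fold change -0.094, SE 0.0334, limma adjusted p = 0.0263). That call was lost without vehicle replicate 1 or 3 or without HR-19011 replicate 2 or 3 and under quantile normalization (-0.013, limma adjusted p = 0.702), and the sign turned after conversion to TPM, at 0.026.

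HNRNPUL1 and HNRNPUL2, relatives of HNRNPU with roles at DNA breaks, were not called. HNRNPUL1 had 87.2, 89.7 and 94.0 FPKM in vehicle and 87.8, 88.5 and 86.7 in HR-19011. HNRNPUL2 had 31.4, 31.7 and 30.6 and 30.7, 30.04 and 29.3 FPKM. Groups overlapped for both, and their log2 fold changes of -0.042 and -0.058 became -0.34 and -0.35 under TMM scaling, where both were called lower. They were 0.12 and 0.051 under quantile normalization and 0.082 and 0.063 after conversion to TPM, where HNRNPUL1 was called higher both times. The 4 intronless copies HNRNPCL1 to HNRNPCL4 were listed at 0 or near 0 in every library.

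**Figure D3:**
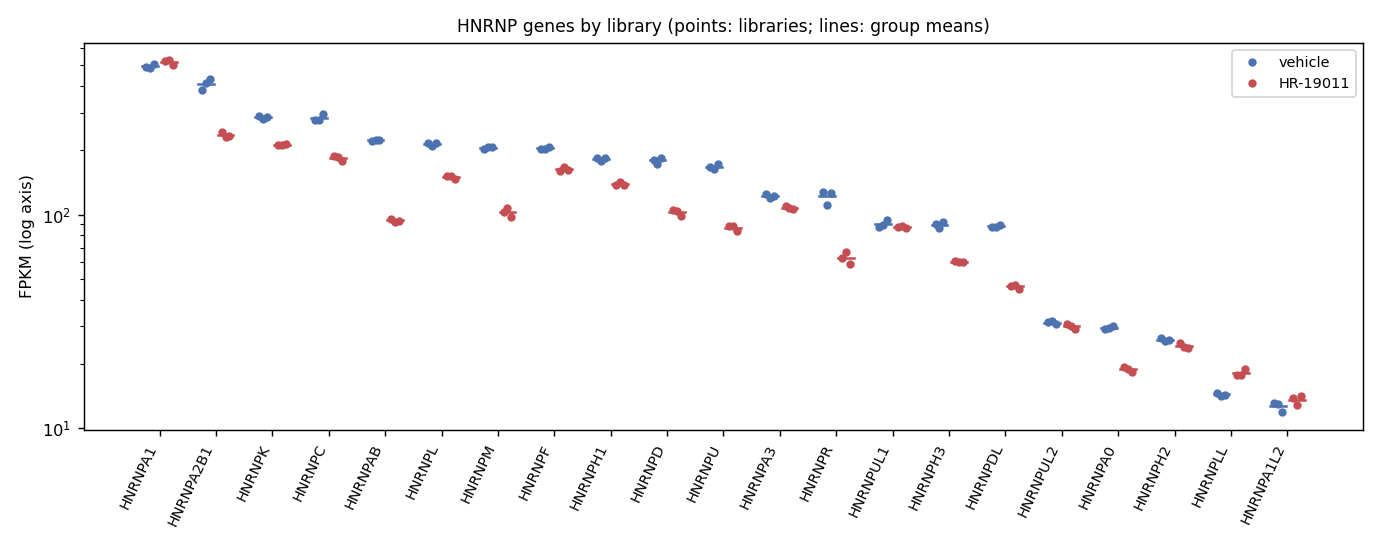
FPKM (log axis) of the 21 tested HNRNP genes, ordered by vehicle level, with 1 point per library and a line at each group mean. HNRNPA1 is highest in both groups, at 495 and 519 FPKM, with overlapping points, while HNRNPA2B1 comes down from 409 to 237.

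The summed FPKM of the 25 HNRNP genes was 3475 ± 73.0 in vehicle and 2461 ± 43.1 in HR-19011 (SD, n = 3). HNRNPA1 made up 14.2% ± 0.0784 of this sum in vehicle and 21.1% ± 0.206 in HR-19011, a share that a scaling factor per library leaves as it is. Its ratio to HNRNPA2B1, the gene next in level, was 1.21 ± 0.0650 in vehicle and 2.19 ± 0.0767 in HR-19011, and its lowest treated ratio lay above its highest vehicle ratio. HNRNPAB moved from rank 5 to rank 11 by mean level, and its ratio to HNRNPD was 1.242 ± 0.0438 in vehicle and 0.917 ± 0.0350 in HR-19011. The ratio of HNRNPLL to HNRNPL was 0.0674 ± 0.000814 in vehicle and 0.122 ± 0.00661 in HR-19011, and that of HNRNPUL1 to HNRNPU 0.538 ± 0.0155 in vehicle and 1.01 ± 0.0221 in HR-19011. HNRNPF and HNRNPH1 kept closer proportions, with ratios of 1.12 ± 0.0267 in vehicle and 1.17 ± 0.00789 in HR-19011.

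The kinases split, with 4 of 6 tested genes higher and 2 lower, but 1 higher and 3 lower under TMM scaling and 3 of each under quantile normalization. SRPK1, the main cytoplasmic kinase of SR proteins, was by far the highest kinase in vehicle and fell, with 69.7, 67.0 and 69.7 FPKM in vehicle and 32.8, 33.1 and 32.0 in HR-19011 (log2 fold change -1.05, SE 0.0298, limma adjusted p = 3.15e-09). SRPK1 (NCBI gene 6732) lies on chromosome 6 of GRCh38 from 35832966 to 35921098 on the minus strand. SRPK2, its paralog, had 12.1, 12.4 and 12.1 and 13.5, 14.2 and 13.5 FPKM (log2 fold change 0.16, SE 0.0367, limma adjusted p = 0.00335), a small rise that turned to -0.12 and a call as lower under TMM scaling. The ratio of SRPK2 to SRPK1 was 0.178 ± 0.00675 in vehicle and 0.421 ± 0.00933 in HR-19011. SRPK3, the muscle kinase of the family, was at or below 0.0377 FPKM in every library.

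CLK genes encode dual-specificity kinases, and transcripts of CLK1 and CLK4 are known to be held in the nucleus with retained introns and matured under stress. CLK1 had 7.80, 7.96 and 8.03 FPKM in vehicle and 12.4, 11.9 and 12.0 in HR-19011 (log2 fold change 0.55, SE 0.0367, limma adjusted p = 7.1e-07). It had the highest log2 fold change of the 42 genes and was called higher under each scaling tried, at 0.28 under TMM scaling. CLK1 (NCBI gene 1195) lies on chromosome 2 of GRCh38 from 200853009 to 200864658 on the minus strand. CLK3 had 9.53, 10.7 and 10.8 and 14.2, 14.7 and 13.1 FPKM (log2 fold change 0.40, SE 0.0586, limma adjusted p = 0.000166), with a call lost under TMM scaling (limma adjusted p = 0.0828). CLK4, the closest relative of CLK1, had 2.59, 2.61 and 2.75 and 3.05, 3.13 and 3.10 FPKM (log2 fold change 0.17, SE 0.0477, limma adjusted p = 0.00978). The difference turned to -0.057 under TMM scaling, where it was not called (limma adjusted p = 0.275). Under quantile normalization it was -0.17 and called lower (limma adjusted p = 0.00771).

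CLK2 was the CLK gene that fell, with 20.6, 21.4 and 22.4 FPKM in vehicle and 16.5, 17.02 and 16.4 in HR-19011 (log2 fold change -0.35, SE 0.0394, limma adjusted p = 3.06e-05). It stayed the highest CLK gene by mean level, but its share of the summed CLK FPKM went from 50.6% ± 0.468 to 36.3% ± 0.466 (SD, n = 3). The share of CLK1 went from 18.7% ± 0.511 to 26.4% ± 0.860, and the ratio of CLK1 to CLK2 was 0.370 ± 0.0108 in vehicle and 0.728 ± 0.0265 in HR-19011. The summed CLK level itself was 42.4 ± 1.76 FPKM in vehicle and 45.9 ± 1.14 in HR-19011. Gene-level FPKM does not separate retained-intron or poison-exon transcripts from the coding mRNA, so none of these values is a level of protein-coding transcripts alone.

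**Figure D4:**
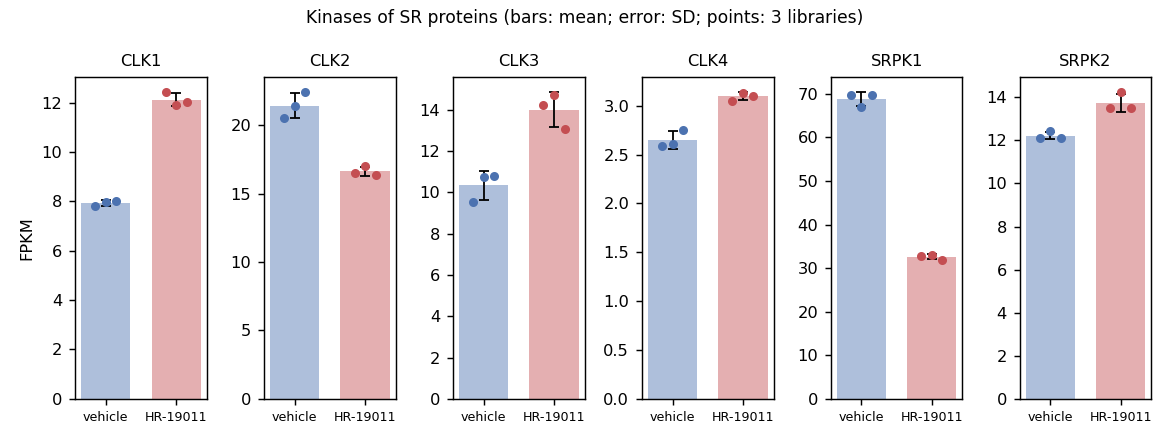
FPKM of the 4 CLK genes and of SRPK1 and SRPK2, each on its own linear axis from 0, with bars for group means, error bars for SD and 1 point per library (n = 3). SRPK1 comes down from 68.8 to 32.6 FPKM and CLK2 from 21.4 to 16.6, whereas CLK1 and CLK3 stand higher in HR-19011, and so do CLK4 and SRPK2 before TMM scaling turns their signs (for CLK4 also quantile normalization).

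Annotation offers features that the choice by symbol did not use. In GENCODE release 29, 33 of the 42 tested genes (78.6%) have at least 1 transcript of the nonsense-mediated decay class, against 45.2% of tested protein-coding genes. All 15 tested SRSF, TRA2 and SRRM genes have such a transcript, as do 13 of 21 HNRNP genes and 5 of 6 kinase genes, CLK2 being the exception. Families with more annotated transcripts have more chances to hold one, and among protein-coding genes with 8 to 16 transcripts, the middle range of the 42, the share was 59.5%. A retained-intron transcript is annotated for 31 of the 42 (73.8%), against 59.8% of tested protein-coding genes. Among those with 8 to 16 transcripts that share was 77.8%. The 42 were not restricted to that range, from HNRNPH2 with 1 annotated transcript to HNRNPH1 with 50. Their 78.6% and 73.8% are therefore not matched in transcript number to the 59.5% and 77.8%. Genes with a nonsense-mediated decay transcript had a median log2 fold change of -0.52 (33 genes) and those without -0.32 (9 genes), given as a description. Of the 33, 24 were called lower and 6 higher, and of the 9, 7 were lower and 0 higher.

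The rest of the splicing machinery was set beside these families through 6 lists chosen by name. Of their 135 tested genes 97 were lower and 19 higher (median log2 fold change -0.39). Among all tested genes 38.0% were lower and 46.4% higher. Among the 5444 tested protein-coding genes averaging 10 FPKM or more, 50.2% were lower and 38.6% higher (median -0.10). Among U1 and U2 snRNP proteins and branch site factors, 18 of 20 were lower and 0 higher, with 18 and 0 at an unadjusted p under 0.05 in limma (median -0.55). Quantile normalization called 3 of them higher, conversion to TPM 1, and leaving out vehicle replicate 3 also 1. SNRPC, a U1 subunit that contacts the 5′ splice site, went from 258 ± 4.65 to 130.4 ± 2.11 FPKM (SD, n = 3), and U2AF2, which binds the polypyrimidine tract, from 143 ± 5.32 to 77.0 ± 1.44 FPKM. PHF5A and SF3B5, small subunits of the SF3b complex, fell 1.97-fold and 1.78-fold.

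Of the Sm and LSm proteins, which form the rings of the spliceosomal snRNPs, 13 of 14 tested were lower and 1 higher (median -0.59). SNRPG fell 2.39-fold, from 226 ± 4.81 to 94.7 ± 1.82 FPKM, SNRPB 1.91-fold and SNRPD3 1.97-fold, whereas LSM8, of the U6 ring, rose 1.62-fold. Of 25 tri-snRNP and Prp19 complex proteins, 15 were lower and 2 higher (median -0.43), and 24 and 1 under TMM scaling. The higher count was 1 without vehicle replicate 2 or 3 or without HR-19011 replicate 1 or 2. PRPF31 of the U4/U6 particle, the tri-snRNP protein gene USP39 and the helicase gene DDX23 fell 2.04-fold, 1.83-fold and 1.89-fold, and BUD31 rose 1.36-fold.

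Among 37 other sequence-specific regulators, 27 were lower and 9 higher (median -0.24), with 30 and 2 under TMM scaling. The widest change in this list was a rise: MBNL2, a muscleblind regulator of developmental exons, went from 2.08, 2.29 and 1.75 FPKM in vehicle to 14.4, 14.7 and 14.9 in HR-19011 (log2 fold change 2.37, SE 0.0648, limma adjusted p = 2.6e-09). SYNCRIP, the closest relative of HNRNPR, fell 2.38-fold, KHSRP 1.85-fold and the RNA-packaging protein gene YBX1 1.75-fold. Of 24 exon junction and adaptor proteins rich in arginine and serine, 16 were lower and 3 higher (median -0.30), with 21 and 1 under TMM scaling. EIF4A3, the helicase of the exon junction complex, fell 2.28-fold, the export adaptor ALYREF 2.27-fold and RNPS1 1.74-fold, and RSRP1 rose 1.72-fold.

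The last list held other kinases, phosphatases, methyltransferases and import receptors that act on SR or hnRNP proteins. Of its 15 genes, 8 (53.3%) were lower and 4 higher (median -0.29), with 11 and 2 under TMM scaling. Its lower share was close to the 50.2% of protein-coding genes averaging 10 FPKM or more. PRMT1, the main arginine methyltransferase of hnRNP proteins, went from 196 ± 6.27 to 75.1 ± 3.86 FPKM (SD, n = 3), and PRMT5, which methylates Sm proteins, from 126 ± 2.91 to 68.0 ± 1.65 FPKM. TNPO2, an import receptor of the transportin family, fell 2.75-fold, and DYRK1B, a kinase related to the CLKs, rose 2.97-fold. TNPO3, the import receptor of SR proteins, was at 61.8 ± 1.07 and 61.4 ± 1.60 FPKM and was not called (limma adjusted p = 0.793). It falls outside the rule for naming and was chosen after its values were seen. The other genes named from the 6 lists kept their direction and their call under TMM scaling, quantile normalization and conversion to TPM.

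**Figure D5:**
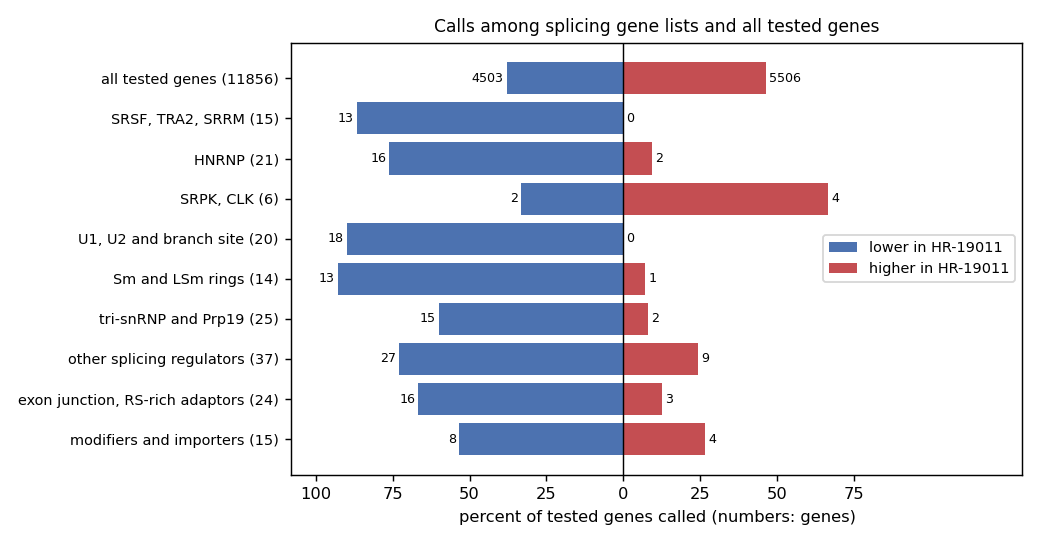
Percent of tested genes called lower (left) or higher (right) in HR-19011 in each family or list, with the number of genes at each bar end and the number tested in brackets. All tested genes stand at 38.0% lower and 46.4% higher, and the SRSF, TRA2 and SRRM genes at 13 lower and 0 higher. Under TMM scaling the SRPK and CLK bar holds 1 gene higher and 3 lower.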

How the data were processed

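Per the labels' protocols, K562 RNA was taken up in TRIzol and poly(A)-selected for stranded libraries. Tools named in the submitters' processing notes, with no role for each, are StringTie 2.1.3b, DESeq2 1.24.0, Bowtie2, HISAT, HISAT2 2.1.0, Trimmomatic 0.38 and SAMtools 1.9. The build named there is GRCh38. The authors deposited FPKM per gene with RefSeq identifiers, per the file headers, already normalized to length and library size. Low values were searched for whole reads: at the best step, 23.8% to 25.6% of values lay within 0.1 of a whole multiple, against 20% at any fixed step, so reads were not recovered and no count model was used. Pairs of libraries within a group shared at most 0.0208% of nonzero values.

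Groups and replicate numbers came from the titles. The 11856 genes averaging 1 FPKM or more were fitted with limma 3.58.1 in R 4.3.3 on log2(FPKM + 1), with group as the only term and a variance trend. The moderated test was two-sided, and p-values were adjusted by Benjamini-Hochberg across these genes and called under 0.05. A fold given without log2 is the ratio of the group means in FPKM. The fit was tried on simulated data with 50 genes changed at each of 1.25-fold, 1.5-fold, 2-fold and 4-fold and 11656 unchanged. It called 41, 47, 50 and 50 of them, and 10 unchanged genes. Far fewer genes changed there than the 10009 called in the data, so the simulation does not cover that setting.

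The members, lists and motifs were chosen with earlier results of these data known, and the ratios between related genes after their values were seen. Library values are given for the 3 highest and 3 lowest called SRSF and HNRNP genes, for every tested TRA2, SRRM, CLK and SRPK gene, for the most abundant SRSF and HNRNP genes and for those not called. Of each other list the 4 genes with the smallest p are named, at least 1 per direction. Symbols matched for all lists. Positions come from RefSeq (GRCh38.p14) by NCBI gene identifier, for all 51 genes, and transcript classes from GENCODE. The bases after the listed start were found in the gene's own GENCODE transcripts for 33 of 39 promoters. The alternatives were each library left out, the replicate block, protein-coding genes alone, a fit without the trend, quantile normalization, TPM, TMM-style scaling (30% of log ratios and 5% of mean logs trimmed per side), a 5 FPKM minimum or none, and pseudocounts of 5 and 0.1.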

Additional observations from a re-analysis of the deposited data

How the results depend on the processing

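Under the alternatives tried, 27 to 38 tested genes of these families were lower, 10 to 15 of them SRSF, TRA2 or SRRM genes and 14 to 20 HNRNP genes. The few higher calls moved more. Under TMM scaling, higher genes numbered 1 over all families, 0 among HNRNP genes, 1 among kinases, 1 in the tri-snRNP list (with 24 lower), 2 among other regulators, 1 among adaptors and 2 among modifiers. After conversion to TPM they numbered 10 over all families, 2 among SRSF, TRA2 and SRRM genes, 4 among HNRNP genes, 1 in the U1 and U2 list, 7 in the tri-snRNP list and 5 among adaptors. Quantile normalization gave 1 among SRSF, TRA2 and SRRM genes, 3 in the U1 and U2 list, 5 in the tri-snRNP list and 5 among adaptors. Without a filter there was 1 higher SRSF, TRA2 or SRRM gene, 1 HNRNP gene, 2 Sm or LSm genes and 8828 genes in all, and with at least 5 FPKM 3347 in all, since other genes were then tested. HNRNP genes called higher numbered 1 with either other pseudocount, without the trend and with the replicate block. Leaving out each library gave 1 to 2 higher HNRNP genes, 0 to 1 in the U1 and U2 list and 1 to 2 in the tri-snRNP list.

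Signs turned under TMM scaling for SRSF11 (-0.29), SRSF8 (-0.25), HNRNPA1 (-0.23), HNRNPA1L2 (-0.19), SRPK2 (-0.12), CLK4 (-0.057), the kinase median (-0.091) and the median of all genes (-0.19). Quantile normalization turned SRSF8 (-0.030), HNRNPUL1 (0.12), HNRNPUL2 (0.051), CLK4 (-0.17), the kinase median (-0.040) and the median of all genes (-0.055), and TPM turned HNRNPH2 (0.026), HNRNPUL1 (0.082) and HNRNPUL2 (0.063). The median of all genes was -0.039 with at least 5 FPKM. Leaving out each library, SRSF11 ranged from -0.0099 to 0.0227 and SRSF8 from -0.0027 to 0.0684, SRSF11 being negative without vehicle replicate 1 or HR-19011 replicate 2 and SRSF8 without HR-19011 replicate 2. The cause was not tested. Libraries with the same replicate number did not deviate together (correlations -0.11, -0.0045 and -0.034). Taken from means of 3 libraries, such deviations cannot show whether same-numbered libraries were handled together. Under the replicate block 9880 genes were called in place of 10009, with HNRNPA1 the member whose call was lost (limma adjusted p = 0.101). Depth is unknown, so genes listed near 0 cannot be told from absent.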

Other observations

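Besides the 51 protein-coding genes, the deposited tables hold 119 rows with the same symbol stems that are not protein coding, 117 of them pseudogenes (6 of these annotated as transcribed) and 2 long noncoding RNAs. Rows named as HNRNPA1 pseudogenes numbered 71, and their summed level was 101 ± 3.72 FPKM in vehicle and 106 ± 5.78 in HR-19011 (SD, n = 3), which is 20.5% and 20.4% of the level of HNRNPA1 itself. The 13 HNRNPA3 pseudogene rows summed to 11.6 ± 0.315 and 9.93 ± 0.3802 FPKM. No other family member had pseudogene rows that summed to 1 FPKM in either group, among the 20 members with rows of that kind. The sources used here do not say how reads shared with the parent genes were divided.

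The calls among the 42 tested genes were also counted by mean level. Of the 16 genes with a mean under 50 FPKM, 7 were lower and 5 higher (median log2 fold change -0.026). Of the 11 between 50 and 100 FPKM, 10 were lower and 0 higher by the limma test, and of the 15 at 100 FPKM or more, 14 were lower and 1, HNRNPA1, was higher (-0.23 and called lower under TMM scaling). Among all tested protein-coding genes the lower share was 35.8% (of 9010 genes), 61.2% (of 691) and 55.8% (of 568) in the same bands.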
